A study of Mus musculus with 6 samples.

Results

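Expression of the integrin subunits that bind laminins and collagens was examined in Nf2-knockout and control primary mouse chondrocytes. The group was defined by name, as the rows of the deposited expression table whose symbol is Itga1, Itga2, Itga3, Itga6, Itga7, Itga10, Itga11, Itgb1 or Itgb4. All 9 of these genes were found among the 55401 of the table, and all 9 passed the filter on low counts that left 18218 genes to test. The libraries were 3 of Nf2-knockout and 3 of control chondrocytes, cells of cartilage tissue in primary culture with differentiation, and the series describes the controls as carrying the floxed Nf2 allele. The treatment label of the knockout libraries names TCF21 overexpression, that of the controls reads control, and Tcf21 had 0, 2 and 0 counts in knockout and 0, 0 and 0 in control libraries. The library names pair the tag D7 with cKO in the knockout group and with CTL in the control group. D7 was not read as an age or a culture time here. The driver of the deletion and the age of the animals are not given in the labels. No label ties the replicates to separate animals or cultures, so the p-values below reflect library-to-library spread that may be purely technical.

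Integrins are transmembrane receptors made of an alpha and a beta chain that tie the extracellular matrix to the actin cytoskeleton. Itga3, Itga6 and Itga7 encode alpha chains that recognise laminins, the cross-shaped glycoproteins of basement membranes, and Itga1, Itga2, Itga10 and Itga11 encode alpha chains that bind collagens through an inserted I domain. Itgb1 encodes the beta chain shared by all these alpha chains, and Itgb4 a beta chain that pairs with the product of Itga6 alone and anchors hemidesmosomes to keratin filaments. Cartilage is known for the collagen receptor of Itga10, and fibroblasts for that of Itga11. Nf2 encodes merlin, a membrane-associated protein upstream of the Hippo kinases, which restrain the coactivators YAP and TAZ of the TEAD transcription factors.

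Each library held between 50906043 and 63748798 counts, of which the 9 integrin genes took from 76200 to 117745. Nf2 itself was lower in the knockout libraries (95.3 ± 6.59 CPM, SD, n = 3) than in the controls (126.8 ± 5.32 CPM, SD, n = 3), but its transcripts remained. Its log2 fold change was −0.41 (adjusted p = 0.0305 in edgeR's quasi-likelihood test). That call was kept in 0 of 6 fits with 1 library left out. CPM are counts scaled to a common library size, after trimmed-mean (TMM) correction, and serve for comparing libraries. FPKM, which are also divided by gene length, serve for comparing genes. Chondrocyte markers were present, summing to between 697 and 1450.5 CPM over 10 genes in knockout and between 599 and 854 CPM in control libraries. Of those markers Comp, Col2a1 and Col9a1 were the most abundant. Fibroblast and tendon genes were abundant too, at 1283 to 2399 CPM in knockout and 4096 to 4701 CPM in control libraries over 10 genes.

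Subunits of laminin receptors showed the largest rises. Itga3, Itga6 and Itgb4 were 3.40-fold, 3.67-fold and 5.46-fold higher in Nf2-knockout libraries and the shared chain Itgb1 1.35-fold, whereas the laminin-binding Itga7 was 2.03-fold and the collagen-binding Itga11 1.92-fold lower. Of the 9 genes, 4 rose in Nf2-knockout libraries (Itga3, Itga6, Itgb4 and Itgb1), 2 fell (Itga7 and Itga11) and 3 did not pass the test (Itga1, Itga2 and Itga10), at an adjusted p below 0.05 in edgeR's quasi-likelihood test with Benjamini-Hochberg adjustment over all genes. Over all 18218 genes the same test called 9.29%, with 4.11% higher and 5.18% lower. Knockout values were all above the controls for 5 of the 9 genes and all below for 3, so that groups did not overlap for 8. Over all genes tested the share without overlap was 32.9%, with 15.5% higher and 17.4% lower. The median log2 fold change of the 9 was 0.43, the value of Itgb1, beside −0.01 over all genes tested. The 9 genes were chosen with earlier results of these data known, so these comparisons with all genes do not test the set. Positive log2 fold changes mean a higher level in knockout libraries, and every adjusted p given for a gene comes from that edgeR test unless another tool is named.

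**Figure D1:**
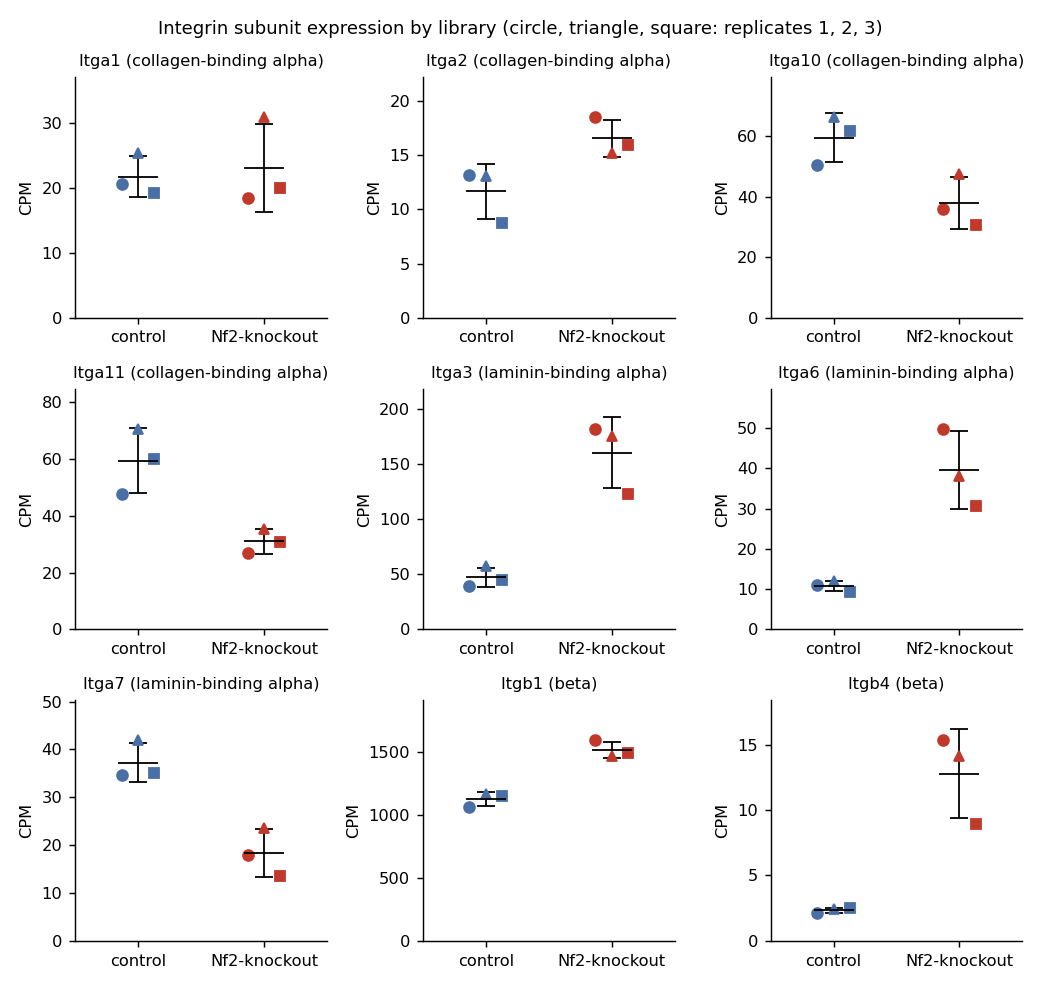
Normalised expression (CPM, vertical axes from 0, a scale of its own for each gene) of the 9 integrin genes in 3 control and 3 Nf2-knockout libraries. Points are libraries, with 1 symbol for each replicate number, and bars are the mean ± SD. For Itga3 the 3 knockout libraries lie between 123 and 182 CPM, all above the control libraries, whereas the groups of Itga1 overlap.

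The promoter sequences of the subunits that changed, as far as they were at hand, are shown here because TEAD factors act downstream of merlin. RefSeq promoters (GRCm38.p6) matched 6 of the 9 genes. Itga6, Itga7 and Itgb4 had none. The 250 bases before the start site are given 5′ to 3′ for Itga3, Itgb1 and Itga11, which changed, and for Itga10, the other gene whose window holds the TEAD motif searched. Capitals mark the TEAD core motif CATTCC or its reverse complement GGAATG.
Itga3: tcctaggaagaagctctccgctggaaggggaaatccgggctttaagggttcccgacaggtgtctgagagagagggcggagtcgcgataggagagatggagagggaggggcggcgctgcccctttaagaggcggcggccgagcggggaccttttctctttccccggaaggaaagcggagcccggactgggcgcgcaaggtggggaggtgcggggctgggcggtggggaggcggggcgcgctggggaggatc
Itgb1: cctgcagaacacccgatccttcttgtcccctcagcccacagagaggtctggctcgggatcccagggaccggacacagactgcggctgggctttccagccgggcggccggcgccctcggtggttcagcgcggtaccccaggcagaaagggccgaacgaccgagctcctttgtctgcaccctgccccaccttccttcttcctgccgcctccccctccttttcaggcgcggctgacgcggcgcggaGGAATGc
Itga11: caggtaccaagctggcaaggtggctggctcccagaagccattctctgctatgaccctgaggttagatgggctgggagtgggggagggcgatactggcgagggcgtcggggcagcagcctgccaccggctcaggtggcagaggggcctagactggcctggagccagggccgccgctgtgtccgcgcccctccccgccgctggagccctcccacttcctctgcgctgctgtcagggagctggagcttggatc
Itga10: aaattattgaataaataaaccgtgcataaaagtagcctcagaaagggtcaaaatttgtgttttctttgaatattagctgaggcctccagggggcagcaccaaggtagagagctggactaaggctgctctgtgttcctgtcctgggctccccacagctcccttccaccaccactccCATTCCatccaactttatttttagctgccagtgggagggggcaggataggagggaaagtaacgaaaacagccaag
They lie at chr11:95076715-95076964 (minus strand), chr8:128685404-128685653 (plus strand), chr9:62677605-62677854 (plus strand) and chr3:96645334-96645583 (plus strand). For Itga3 and Itga11 the RefSeq start sites, 95076714 and 62677855, lie inside the deposited gene bounds, 95076797 and 62677826. Their windows therefore overlap those genes in part.

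The core motif stood 7 bases before the start site of Itgb1, as GGAATG, and 75 bases before that of Itga10, as CATTCC. Searched on both strands, it occurred in 2 of the 7 windows of the integrin genes (Itga3 has a second start site) and in 12.6% of all 32851 windows of that length. The AP-1 motif TGAGTCA was in 0 of the 7 windows and in 4.46% of all windows. The RUNX motif TGTGGT was in 1 of 7, before the second start site of Itga3, and in 14% of all windows. A match says only that these letters are present. The printed windows of Itga3, Itgb1 and Itga11 were rich in G and C, at 67.6%, 68% and 68.4%, where the median of all windows was 52.4% (interquartile range 45.2% to 61.2%). The window before the second start site of Itga3 was at 50.8%, with 5 CG dinucleotides. That of Itga10 stood at 48% and held 2 CG dinucleotides, against 22 in the printed window of Itga3, 21 in Itgb1 and 12 in Itga11.

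Itga3 was the alpha subunit with the highest level in knockout libraries, and it rose 3.40-fold. Its product pairs with the beta 1 chain into a receptor for the laminins of epithelial basement membranes. Itga3 (ENSMUSG00000001507, chromosome 11, 95044474 to 95076797, minus strand) stood at 182, 176 and 123 CPM in replicates 1 to 3 of the knockout group and at 39.5, 57.0 and 44.5 CPM in those of the control group, the order used throughout. Every knockout library exceeded the highest control, and knockout replicate 3 was the lowest of its group. The log2 fold change was 1.77 (SE 0.195, adjusted p = 0.00464). No single library decided the call: its fold change lay between 1.66 and 1.93 (log2) when 1 was left out, and it passed in all 6 fits.

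Itga6, whose chain pairs with beta 1 or beta 4, rose 3.67-fold from a lower level. Itga6 (ENSMUSG00000027111, chromosome 2, 71745616 to 71858416, plus strand) had 49.9, 38.1 and 30.6 CPM in knockout and 10.96, 11.9 and 9.37 CPM in control libraries. The control libraries lay close together and the knockout libraries were spread, again with replicate 3 lowest. The log2 fold change was 1.88 (SE 0.199, adjusted p = 0.00431), from 1.69 to 2.04 with 1 library left out, and the call held in all 6 of those fits. The FPKM of Itga3 was 6.56 ± 0.774 times that of Itga6 in knockout and 7.02 ± 1.07 times in control libraries (SD, n = 3 each), ranges that overlapped. With FPKM rescaled to the longest transcript the ratios were 3.68 ± 0.434 and 3.94 ± 0.599 (SD, n = 3 each), again overlapping.

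Itgb4 showed the largest rise of the 9 genes and the lowest level of all in control libraries. Itgb4 (ENSMUSG00000020758, chromosome 11, 115974709 to 116008412, plus strand) was at 15.3, 14.1 and 8.94 CPM in knockout and at 2.13, 2.41 and 2.49 CPM in control libraries. These values rest on 800, 890 and 597 counts in knockout and 126, 130 and 142 counts in control libraries. The groups were far apart, with a log2 fold change of 2.45 (SE 0.242, adjusted p = 0.00373), the rise of rank 157 by size among all genes tested. With 1 library left out it ran from 2.32 to 2.66 and the call held in all 6 fits. On the log2(FPKM + 1) scale of limma, which understates the change of low genes, it was 1.05 and still passed. The FPKM of Itga6 was 2.40 ± 0.29 times that of Itgb4 in knockout and 3.56 ± 0.577 times in control libraries (SD, n = 3 each), and the groups did not overlap.

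Itgb4 and Itga6 are also known from epithelial and Schwann cells, so the markers of both were read beside them. Of 10 epithelial markers 4 could be tested, 1 rose (Krt19, a keratin of simple epithelia, log2 fold change 1.98, adjusted p = 0.00603) and 0 fell, and their sum was 12.7 to 15.8 CPM in knockout and 7.17 to 8.85 CPM in control libraries. Krt19 averaged 7.04 CPM in knockout and 1.78 CPM in control libraries. The other tested markers, Trp63, Krt18 and Cdh1, averaged 4.51, 1.71 and 0.510 CPM in knockout and 4.36, 1.51 and 0.162 CPM in control libraries. None of those passed, at log2 fold changes of 0.05, 0.18 and 1.64. Esrp1, an epithelial splicing factor, had no count in any library. Epcam, an epithelial adhesion protein, averaged 0.098 CPM in knockout and 0 in control libraries. Of 10 Schwann cell markers 6 could be tested, 0 rose and 1 fell (Cdh19, a cadherin of Schwann cell precursors, −1.44, kept in 1 of 6 fits with 1 library left out), their sum was 121 to 204 CPM in knockout and 118 to 166 CPM in control libraries, and S100b, which chondrocytes also express, held most of it. Sox10, the transcription factor that defines Schwann cells, averaged 0.02 CPM in knockout and 0 in control libraries, and Gfra3 had no count. The part of such cells in the rise of Itgb4 and Itga6 was not tested. In bulk RNA, more cells of a type and more RNA per cell cannot be told apart.

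Itga7, the third laminin-binding alpha chain, moved the other way. It is the main laminin receptor chain of skeletal muscle. Itga7 (ENSMUSG00000025348, chromosome 10, 128933818 to 128958282, plus strand) stood at 18.0, 23.6 and 13.5 CPM in knockout and at 34.7, 41.9 and 35.1 CPM in control libraries. The groups did not overlap, and the log2 fold change was −1.02 (SE 0.206, adjusted p = 0.0269). The call was kept without knockout replicate 2 and lost without any 1 of the other 5 libraries, at adjusted p from 0.0596 to 0.102 and log2 fold changes from −1.07 to −0.83. Of 10 skeletal muscle markers, read beside it, 6 could be tested and 0 passed in either direction in edgeR, with 0 at an unadjusted p below 0.05 and 0 called by DESeq2. Their sum was 9.42 to 20.6 CPM in knockout and 11.2 to 27.0 CPM in control libraries. Myod1, the muscle master regulator, had no count in any library.

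Itgb1 was by far the most abundant of the 9 genes and rose by a small, even amount. Itgb1 (ENSMUSG00000025809, chromosome 8, 128685654 to 128733200, plus strand) was at 1594, 1473 and 1489 CPM in knockout and at 1066, 1166 and 1151 CPM in control libraries. The lowest knockout library exceeded the highest control, with a log2 fold change of 0.43 (SE 0.0852, adjusted p = 0.0252), or 1.35-fold. With 1 library left out the log2 fold change stayed between 0.39 and 0.45, but the call was lost without knockout replicate 1 or 3 or control replicate 1 or 2, at adjusted p from 0.0588 to 0.0901. On the FPKM scale Itgb1 stood at 347 ± 13.8 in knockout and 240.0 ± 10.7 in control libraries. That is 7.36 ± 1.27 times the summed FPKM of the 7 alpha genes in knockout and 7.01 ± 0.732 times in control libraries (SD, n = 3 each), with overlapping groups. Alpha chains outside these 9 genes also pair with it.

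**Figure D2:**
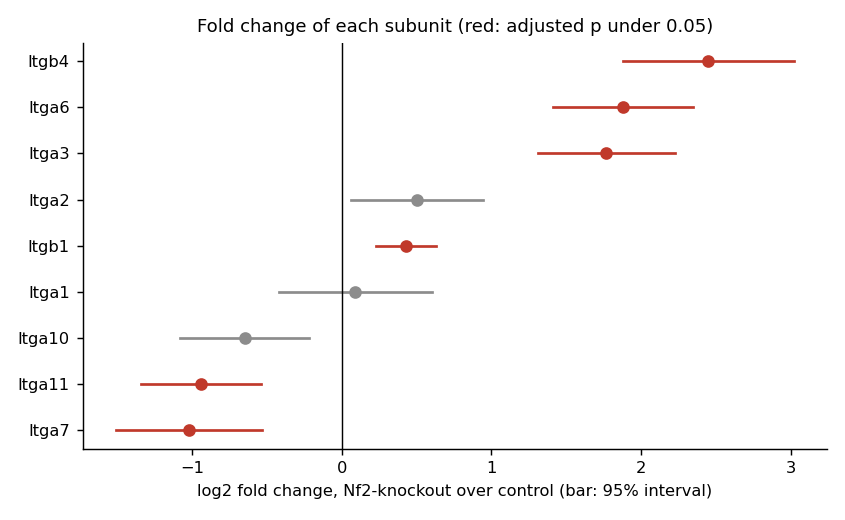
Log2 fold change of Nf2-knockout over control for each integrin gene in edgeR (horizontal axis), with its 95% interval as a bar and red for an adjusted p below 0.05. Itgb4, Itga6 and Itga3 lie between 1.77 and 2.45, and Itga11 and Itga7 near −1.

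Among the collagen-binding subunits only Itga11, a receptor chain for fibrillar collagens in mesenchymal cells, passed the test. Itga11 (ENSMUSG00000032243, chromosome 9, 62677826 to 62783982, plus strand) had 26.8, 35.4 and 30.7 CPM in knockout and 47.7, 70.7 and 60.0 CPM in control libraries. All knockout libraries were below all controls, and the log2 fold change was −0.94 (SE 0.171, adjusted p = 0.0195). The call was lost without knockout replicate 1 or 3 or control replicate 2 or 3, at adjusted p from 0.0545 to 0.0753 and log2 fold changes from −0.93 to −0.80. Of 10 fibroblast and tendon markers 2 fell and 0 rose in edgeR, the falls being those of Lum and Pdgfra. At an unadjusted p below 0.05, 3 were lower and 2 higher, and DESeq2 called 3 lower and 1 higher. Lum, the proteoglycan lumican, was at −1.78 (adjusted p = 0.0264, kept in 2 of 6 fits with 1 library left out). Pdgfra, a growth factor receptor of mesenchymal cells, was at −1.423 (adjusted p = 0.00332, kept in 6 of 6). Dcn, among the most abundant of the list, was at −0.96 without passing (adjusted p = 0.0557). The median of that list was 0.24. Thy1 and Scx, markers of the same list, were at 0.38 and 0.25 and did not pass. The part of these cells in the values of Itga11 was not tested.

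Itga10, the collagen receptor chain typical of cartilage, was lower in knockout libraries without passing. Itga10 (ENSMUSG00000090210, chromosome 3, 96645584 to 96664519, plus strand) stood at 36.0, 47.4 and 30.5 CPM in knockout and at 50.4, 66.2 and 61.7 CPM in control libraries. The groups came close but did not overlap, and the log2 fold change was −0.65 (95% interval −1.08 to −0.22, adjusted p = 0.0754). It passed without knockout replicate 2 (−0.84, adjusted p = 0.0328) and with DESeq2 (−0.63, adjusted p = 0.0170). The chondrocyte markers, read beside it, had a median log2 fold change of −0.10, with 1 of 10 risen (Col2a1, kept in 1 of 6 fits) and 0 fallen. Sox9 and Acan, which define the cell type, were at −0.36 and −0.63 and did not pass (adjusted p = 0.298 and 0.413). Matn3, Col9a1, Comp and Matn1 were at 0.68, 0.60, 0.25 and 0.02, and Snorc, Col11a2 and Hapln1 at −0.79, −0.53 and −0.21, without passing. At an unadjusted p below 0.05 in edgeR, 2 of the 10 markers were higher and 0 lower.

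Itga2, a collagen receptor chain best known from platelets and epithelia, was higher in every knockout library but did not pass after adjustment. Itga2 (ENSMUSG00000015533, chromosome 13, 114833081 to 114932100, minus strand) was at 18.5, 15.2 and 15.9 CPM in knockout and at 13.2, 13.04 and 8.76 CPM in control libraries. The log2 fold change was 0.50 (95% interval 0.06 to 0.95, adjusted p = 0.151). Its neighbour Itga1, a receptor chain for collagens that include type IV, showed no difference beyond its spread. Itga1 (ENSMUSG00000042284, chromosome 13, 114953096 to 115101964, minus strand) had 18.4, 30.9 and 20.0 CPM in knockout and 20.6, 25.3 and 19.2 CPM in control libraries. The log2 fold change was 0.09 (95% interval −0.42 to 0.60, adjusted p = 0.845), and it turned to −0.17 without knockout replicate 2. Pelo, a gene that lies within Itga1 on the same strand, had 8224 counts over the 6 libraries beside 7929 for Itga1, and the labels do not say how reads were divided between them. Gm42957, which overlaps Itga10, had 74 counts beside 16993.

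The makeup of the alpha pool, read per length, differed between groups. The FPKM of Itga3, Itga6 and Itga7 made up 71.5%, 65.6% and 63.7% of the summed FPKM of the 7 alpha genes in the knockout libraries and 36.1%, 35.6% and 33.7% in the controls. Itga3 alone held 54.2% ± 3.09 in knockout and 20.6% ± 0.895 in control libraries, and Itga10 and Itga11 together 26.1% ± 3.54 and 57.8% ± 2.58 (SD, n = 3 each). In absolute terms the laminin-binding sum was 32.2 ± 6.30 FPKM in knockout and 12.2 ± 1.88 FPKM in control libraries, and the collagen-binding sum 15.7 ± 2.29 and 22.4 ± 3.33 FPKM. Neither sum overlapped between groups, whereas the sum of all 7 did, at 39.3 to 53.4 FPKM in knockout and 29.996 to 40.1 FPKM in control libraries. Within the laminin-binding chains Itga7 held 33.0% ± 1.54 in control and 6.53% ± 1.07 in knockout libraries.

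**Figure D3:**
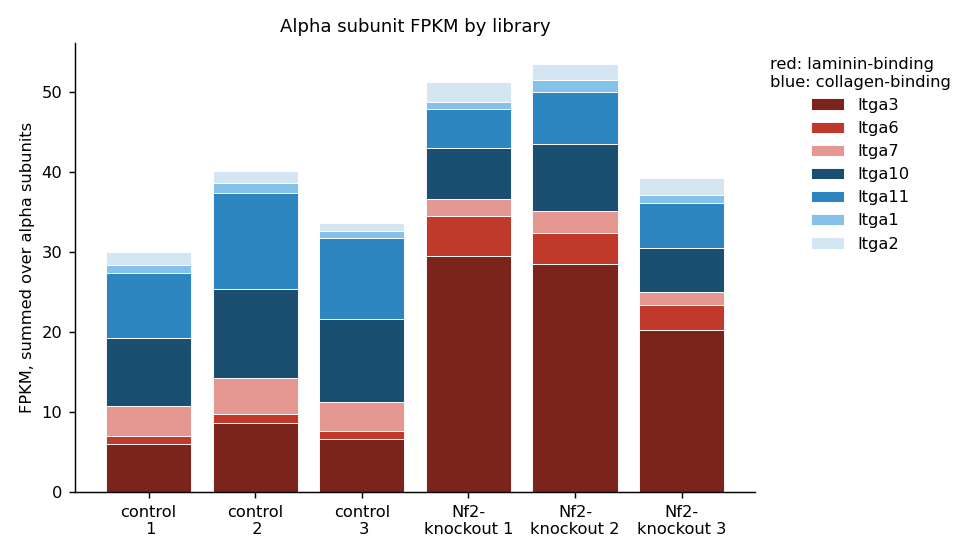
Summed FPKM of the 7 alpha genes in each library (vertical axis from 0), with laminin-binding chains in red and collagen-binding chains in blue. The red part is 33.7% to 36.1% of the bar in the 3 control libraries and 63.7% to 71.5% in the 3 knockout libraries.

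The order of levels on the FPKM scale changed with these shifts. In control libraries Itgb1 came first, followed by Itga11 (10.1 ± 1.93), Itga10 (9.95 ± 1.33), Itga3 (7.14 ± 1.37), Itga7 (3.99 ± 0.441), Itga2 (1.421 ± 0.314), Itga6 (1.02 ± 0.126), Itga1 (1.01 ± 0.152) and Itgb4 (0.288 ± 0.023). The values of Itga11, Itga10 and Itga3 overlapped from each to the next, as did those of Itga2, Itga6 and Itga1. In knockout libraries Itga3 (26.1 ± 5.05) followed Itgb1, ahead of Itga10 (6.81 ± 1.51), Itga11 (5.62 ± 0.775), Itga6 (4.02 ± 0.958), Itga2 (2.16 ± 0.219), Itga7 (2.11 ± 0.568), Itgb4 (1.69 ± 0.436) and Itga1 (1.15 ± 0.333). There Itga3 stood clear of its neighbours, Itga10, Itga11 and Itga6 overlapped from each to the next, and so did Itga2, Itga7, Itgb4 and Itga1. The place of each library within its group was counted over the 9 genes. Knockout replicate 3 was the lowest of its group for 5 of the 9 genes (Itga3, Itga6, Itga7, Itga10 and Itgb4), and control replicate 2 the highest of its group for 7. Control replicate 1 was the lowest of its group for 6, and knockout replicate 1 the highest of its group for 5. The same counts were not made over all genes.

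**Figure D4:**
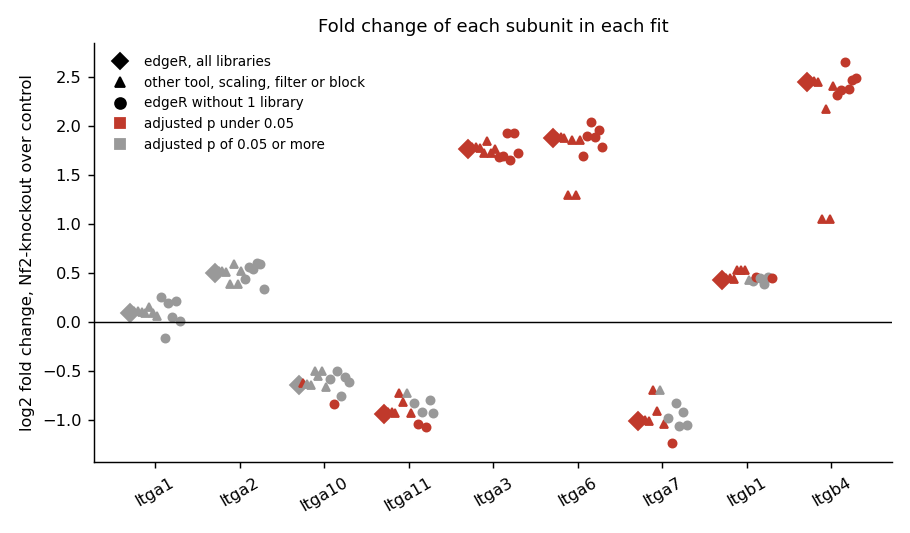
Log2 fold change of each integrin gene (vertical axis) in every fit, with diamonds for edgeR on all libraries, triangles for other tools, scalings, filters or the replicate block and circles for edgeR without 1 library. Points are red where the adjusted p was below 0.05, which was so in all fits for Itga3, Itga6 and Itgb4, in some for Itga7, Itga10, Itga11 and Itgb1 and in none for Itga1 and Itga2.

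Ligands and partners of these receptors were read from lists of 87 genes in all, of which 82 were tested, 15 rose and 2 fell. Over all genes tested 4.11% were called higher and 5.18% lower, shares that stand beside each list count below. The median log2 fold change was 0.20 for laminin chains, 0.11 for collagens, 0.17 for other collagen receptors, 0.48 for hemidesmosome and tetraspanin partners and 0.19 for adaptors and kinases, beside −0.01 over all genes tested. The rises among these lists numbered 5 to 9 with 1 library left out, namely 5 when knockout replicate 1 was dropped, 6 for control replicate 1, 7 for control replicate 2 and 9 for each other library. Over all genes tested the rises then numbered 309 to 574, beside 749 with no library left out. Below, a call named for a ligand or partner gene was kept in all 6 fits with 1 library left out unless a smaller number is given. Of 11 laminin chains 2 rose and 2 fell. Lamb2, a beta chain of mature basement membranes, rose from 116.7 ± 9.996 to 199 ± 11.1 CPM (0.77), and Lamb3, a beta chain of epithelial laminins, from 0.759 ± 0.399 to 4.1997 ± 0.63 CPM (2.46, 3 of 6 fits). Lama4 and Lamb1, chains of laminins of vessels and mesenchyme, changed by −0.70 and −0.82 (6 and 2 of 6 fits). Lama5, a chain of preferred ligands of the Itga3 and Itga6 receptors, was at 0.20 and did not pass (adjusted p = 0.333).

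Of 13 tested collagen chains 1 rose, Col2a1, the collagen of cartilage fibrils (1.33, 1 of 6 fits). In edgeR 0 fell, 2 had an unadjusted p below 0.05 in that direction, and DESeq2 called 1 fall. Col1a2 and Col3a1, chains of fibroblast collagens, were at −0.44 and −0.47 (adjusted p = 0.0821 and 0.1248). Of 4 tested other collagen receptors 2 rose and 0 fell in edgeR, with 1 lower at an unadjusted p below 0.05 and 0 called lower by DESeq2. The 2 were the receptor tyrosine kinases for collagen, Ddr1 from 55.2 ± 2.87 to 87.9 ± 0.764 CPM (0.67), and Ddr2 by 0.48 on the log2 scale (1 of 6 fits). Among the hemidesmosome and tetraspanin partners 4 of 10 rose and 0 fell in edgeR. DESeq2 also called 0 falls, and 0 genes were lower at an unadjusted p below 0.05. The linker gene Plec, which ties beta 4 to keratins, rose by 0.49 (2 of 6 fits), its relative Dst by 0.46 (0 of 6 fits), the tetraspanin gene Cd82 by 0.61 (2 of 6 fits) and Bcam, a receptor of laminin alpha 5, by 1.18. Cd151, the tetraspanin that binds laminin receptors, had 205 ± 57.0 CPM in knockout and 108.6 ± 33.6 CPM in control libraries, a difference that missed the threshold (0.92, adjusted p = 0.0803). Col17a1, the transmembrane collagen of hemidesmosomes, averaged 0.353 CPM in knockout and 0.0701 CPM in control libraries.

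Inside the cell, 3 of 29 tested adaptors and kinases rose and 0 fell in edgeR, while an unadjusted p below 0.05 was found for 11 on the higher and 0 on the lower side and DESeq2 called 5 and 0. They were Lims2, an adaptor that binds integrin-linked kinase (1.67), Ptk2b, a relative of focal adhesion kinase (1.22), and Csk, the kinase that restrains Src (0.52, 2 of 6 fits). Talin, kindlin and integrin-linked kinase genes, which bind or follow the beta 1 tail, did not pass: Tln1 was at 0.25 (adjusted p = 0.127), Fermt2 at 0.08 (adjusted p = 0.587) and Ilk at 0.01 (adjusted p = 0.96). Of 15 other integrin subunits 3 rose and 0 fell in edgeR (2 lower at an unadjusted p below 0.05, and 2 called lower by DESeq2). Itga8 rose from 6.58 ± 1.91 to 21.6 ± 7.36 CPM (1.71, 2 of 6 fits), Itga5, the fibronectin receptor chain, by 0.44 and Itgb7, a leukocyte chain, by 0.92 (0 of 6 fits each). Of other leukocyte chains, Itgb2, Itgam, Itgad and Itgae were at −0.88, −1.69, −1.40 and −1.74. None of them passed (adjusted p from 0.0638 to 0.524). The median of those 15 was −0.36, beside 0.43, the value of Itgb1, for the 9 laminin- and collagen-binding genes, a comparison that carries no test. Those 9 ran from −1.02 for Itga7 to 2.45 for Itgb4. That −0.36 was the value of Itgav, at 27.0, 89.4 and 35.2 CPM in knockout and 95.7, 81.7 and 17.1 CPM in control libraries. Itgad, Itgae and Itgam averaged at most 0.537 CPM in either group, and Itgb5, the most abundant of the 15, was at −0.14. Macrophage markers, which leukocyte chains accompany, fell for 5 of 10 genes (Csf1r in 2 of 6 fits with 1 library left out, the complement gene C1qb and Mrc1 in 1 each, C1qa and Cd68 in 0), at 47.2 to 102 CPM in knockout and 142 to 372 CPM in control libraries. Pericyte and smooth muscle markers, cells that carry Itga1, Itga7 and Itga8, rose for 3 of 10 genes (Rgs5, Cspg4 and, in 3 of 6 fits, Acta2) and fell for 1 (Abcc9, 2 of 6 fits), at 636 to 1065 CPM in knockout and 442 to 487 CPM in control libraries. Endothelial markers summed to 17.1 to 22.2 CPM in knockout and 19.3 to 28.8 CPM in control libraries. Of 7 tested genes 1 rose (Kdr, 2 of 6 fits) and 0 fell. Erg, the most abundant of that list, averaged 10.5 CPM in knockout and 19.3 CPM in control libraries without passing (−0.88, adjusted p = 0.223). Cdh5, which defines endothelial cells, averaged 0 CPM in knockout and 0.113 CPM in control libraries. For the epithelial, endothelial and chondrocyte lists 0 genes fell, and for the Schwann and macrophage lists 0 rose, also at an unadjusted p below 0.05 in edgeR and by DESeq2. The part of these cell types in the integrin values was not tested.

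**Figure D5:**
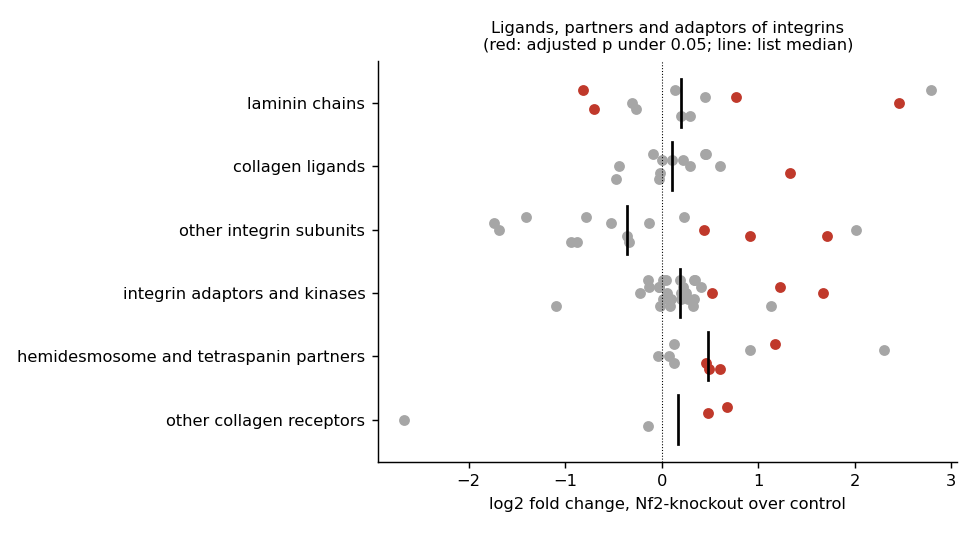
Log2 fold change of Nf2-knockout over control (horizontal axis) for the 82 tested genes of the 6 lists, with a point for each gene, red for an adjusted p below 0.05 and a vertical line at each list's median. Hemidesmosome and tetraspanin partners have a median of 0.48 and other integrin subunits of −0.36.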

How the data were processed

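RNA-seq of 3 Nf2-knockout and 3 control libraries of primary chondrocytes was used, grouped by sample title. Libraries were made from poly(A) RNA on oligo(dT) beads, per the labels' protocols. Tools in the submitters' processing notes are edgeR, StringTie 1.3.4d, HISAT2 2.0.4 and cutadapt 1.9, with no roles given. The genome build and strand setting are not given in the sources used here. Positions equalled those of GENCODE M21 (GRCm38) for 94.2% of 55141 genes and for 8 of the 9 integrin genes. Itga3 differed at its end.

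The authors deposited a count per gene and library, used as given (totals 50906043 to 63748798), and FPKM values, which the authors scaled to depth and length. The length behind the deposited FPKM was 1.11 to 1.13 times the union of annotated exons for the 9 genes. How reads were assigned to genes is not stated.

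Counts were tested with edgeR 4.0.16 in R 4.3.3 (filterByExpr, TMM, glmQLFit and glmQLFTest on group), two-sided, with Benjamini-Hochberg adjustment over all 18218 genes tested and a threshold of 0.05. Fold changes carry a prior count of 0.125. The SE was taken from the test's F statistic and the log2 fold change, and 95% intervals are not adjusted. Scripts were tested on simulated counts. Alternatives were DESeq2 1.42.0, relative log expression factors, no filter, limma 3.58.1 on log2(FPKM + 1) and log2(FPKM + 0.1), a replicate block and each library left out. FPKM rescaled to the longest transcript was added after seeing the data.

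The integrin genes and the gene lists were chosen with earlier results of these data known. Named were all 9 genes, Nf2, up to 4 tested genes of each list by smallest p, the 3 most abundant markers and those without counts for each cell type, and for each changed integrin gene the 3 genes of mean FPKM 1 or more with the nearest pattern. Not every gene taken by this rule is reported. Tcf21, Lama5, Cd151, Col17a1, Tln1, Fermt2, Ilk, and the further markers were named for their roles after their values were seen.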

Additional observations from a re-analysis of the deposited data

How the results depend on the processing

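Of the 9 integrin genes, Itga3, Itga6 and Itgb4 kept direction and call in all 13 alternatives, and Itga1 and Itga2 passed in 0 of 13. Without a filter, limma on log2(FPKM + 1) called 0 integrin falls (3 at an unadjusted p below 0.05; DESeq2 called 3), with −0.73 for Itga11 and −0.70 for Itga7, 1 fall among the ligand and partner genes and 1063 genes in all. DESeq2 called Itga10 (−0.63), 5 falls among the ligand and partner genes and 2593 genes. The replicate block gave 5 rises among the ligand and partner genes, 923 genes in all and 0.43 for Itgb1 at an adjusted p = 0.0754. Leaving out 1 library gave 0 to 3 integrin falls (always 3 at an unadjusted p below 0.05 in edgeR), reaching 0 when knockout replicate 1 or 3 or control replicate 2 or 3 was dropped, and 3 to 4 rises. It also gave 5 to 9 rises and 1 to 2 falls among the ligand and partner genes and 629 to 1186 changed genes. The log2 fold changes then ran from −0.84 to −0.50 for Itga10, −1.08 to −0.80 for Itga11, −1.24 to −0.83 for Itga7 and 0.39 to 0.45 for Itgb1. The cause of these changes was not tested. Same-numbered libraries did not deviate together: deviations from the group means correlated across 18218 genes at −0.0577, 0.0366 and 0.0201 for replicates 1 to 3, so the numbers were not taken as pairs. Rescaled to the longest transcript, the laminin-binding share of alpha FPKM was 71.6% in knockout and 43.9% in control libraries. For Nf2 and the named ligand and partner genes, 79 values lost and 5 gained the call, and 237 stayed as they were. The 237 include values called neither in the main fit nor in the alternative, so they do not count kept calls. Counts of Itgb4, from 126 to 142 in control libraries, were the smallest of the 9 genes.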

Other observations

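Among 12092 other genes with a mean FPKM of at least 1, the 3 nearest in pattern to each changed integrin gene were taken. Such a nearest set exists for any gene, and no distance of a typical gene was computed. Likeness was measured as the root mean square difference of log2 CPM, each gene centred on its mean over the 6 libraries. Nearest to Itga3 were Sh2d4a (0.139), Wfdc1 (0.141) and Als2cl (0.157), and nearest to Itga6 were Pxdc1 (0.123), Tinagl1 (0.146) and again Wfdc1 (0.161). Wfdc1 encodes a secreted protease inhibitor and Tinagl1 a matricellular protein of basement membranes. For Itgb4 they were Klk10, a kallikrein-type protease gene, at 0.182 and the semaphorin genes Sema3d and Sema3e at 0.209 and 0.246. For the falling genes the nearest were Synpo2 (0.0649), Cfb (0.0661) and Boc (0.0683) for Itga7, and Inhbb (0.0691), Tent5c (0.0823) and Kif13b (0.0848) for Itga11. Nearest to Itgb1 were Snx1 (0.0393), Mknk2 (0.0401) and Glb1 (0.0411). These distances describe 6 libraries that differ by group and say nothing of shared control.

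The deposited FPKM set some alpha chains lower than a transcript-based length would. For Itga6 the annotated exons together span 9025 bases and the longest transcript 4310, a ratio of 2.09. For Itga7 the lengths are 8092 and 4020 bases (2.01), and for Itga1 18599 and 10967 (1.70), whereas the ratio is between 1.00 and 1.17 for the other 6 genes. Rescaled to the longest transcript, Itga6 averaged 8.41 ± 2.01 in knockout libraries, Itga10 6.999 ± 1.55 and Itga11 5.81 ± 0.8 (SD, n = 3 each). The libraries of Itga6 overlapped those of Itga10, and the lowest of Itga6 (6.59) lay just under the highest of Itga11 (6.60). The ratio of Itga6 to Itgb4 became 4.46 ± 0.537 in knockout and 6.60 ± 1.07 in control libraries (SD, n = 3 each), still without overlap. Fold changes between groups are not touched by this length, since the length implied by count over FPKM differed by a factor of at most 1.01 between libraries for each gene.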
